A study of Mus musculus with 8 samples.

Results

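Insulin-like growth factor (IGF) signalling genes were followed in mouse corneas on one-colour Affymetrix arrays. The members were 10 genes: the ligands Igf1 and Igf2, the receptors Igf1r and Igf2r, and the binding protein genes Igfbp2 to Igfbp7. They were taken as every probe set that the platform annotation gives to 1 of these symbols alone, which gave 28 of 45037 non-control probe sets and 10 of 18193 genes. Names of probe sets that end in _s_at or _x_at mark probes that can also read related transcripts. One further probe set was left out because it is shared by Airn and Igf2r. By their labels, corneas of mice that overexpress TGF-beta are on 4 arrays (TGFB 1 to TGFB 4) and those of wildtype littermates on the other 4 (wildtype 1 to wildtype 4). The labels give no TGF-beta isoform, promoter, transgene-expressing tissue, strain or age. Nor do they say whether arrays stand for different animals, and the p-values therefore reflect array-to-array spread that could be technical. The question is which IGF transcripts differ between the groups.

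IGF1 and IGF2 are secreted hormones related to insulin that drive growth and survival through the receptor tyrosine kinase IGF1R. IGF2R carries IGF2 to the lysosome and so removes it. The IGF binding proteins hold the ligands outside the cell, prolong their life, block or present them to the receptor, and are themselves cut by proteases. In the cornea, IGFs act on epithelial cells and on keratocytes, the resting cells of the stroma, and in many cultured cells TGF-beta raises IGFBP3. In whole corneas, fewer cells of a type and less RNA per cell cannot be told apart.

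The arrays differed in ways that did not follow the groups alone. The mean of 7 cornified epidermis markers, on the log2(signal + 16) scale, was 11.45 to 12.59 in TGFB 1, TGFB 2 and wildtype 2 and 6.24 to 7.20 in the other 5 arrays. Wildtype 4 had the highest Gapdh 3'/5' signal ratio, 6.41 against 2.19 to 4.31 elsewhere, a ratio that grows with RNA decay. The corneal label held in all 8 arrays for the keratocyte genes Kera (2073 to 4154 in TGFB, 2538 to 8110.1 in wildtype arrays) and Lum (3728 to 4965 and 4349.7 to 8788). The corneal keratin gene Krt12 was bright in 6 arrays and low in TGFB 1 (289) and wildtype 4 (562). Of the other corneal epithelium markers, Krt5 and Krt14 were bright in every array, at 2302 to 6844 and 1274 to 5045. Aldh3a1 was 52.5 to 128 in TGFB arrays and 70.5 in wildtype 4, against 4060, 167 and 315 in wildtype 1 to 3. Pax6 was 127, 91.6 and 206 in TGFB 1, TGFB 2 and wildtype 4, against 590 to 1068 in the rest. Transcripts of other tissues were also present: the skeletal muscle gene Acta1 ran from 5613 to 8340.2, the pigment cell gene Dct from 1354 to 8080.1, and the lens gene Cryga from 10.9 to 6313 over the 8 arrays. Differences of Igfbp6, Igfbp5, Igf1 and Igfbp3 and of the partner genes Stc1, Htra1 and Socs2 are also given without wildtype 4.

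No IGF member passed the threshold. Limma called 0 of the 28 probe sets at adjusted p under 0.05, as it called 0 of all 45037 probe sets (0%). At an unadjusted p under 0.05 there were 2 of 28, both lower in TGFB, against 5.86% of all probe sets in either direction, 3.16% lower and 2.7% higher. They were the only Igfbp6 probe set and 1 of 4 Igf1 probe sets. Without wildtype 2 the count was 6, but the share over all probe sets at that setting is not given here, so nothing is read from it. Over all 8 arrays the groups overlapped for every one of the 28, where 3.28% of all probe sets had groups apart, 1.81% with TGFB lower and 1.47% with TGFB higher. The mean was lower in TGFB for 19 of the 28, against 48.4% of all probe sets, and the median difference was -0.075, against 0.0090 over all. The annotation gives several of these probe sets to the same gene, so these counts are not counts of independent genes.

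**Figure D1:**
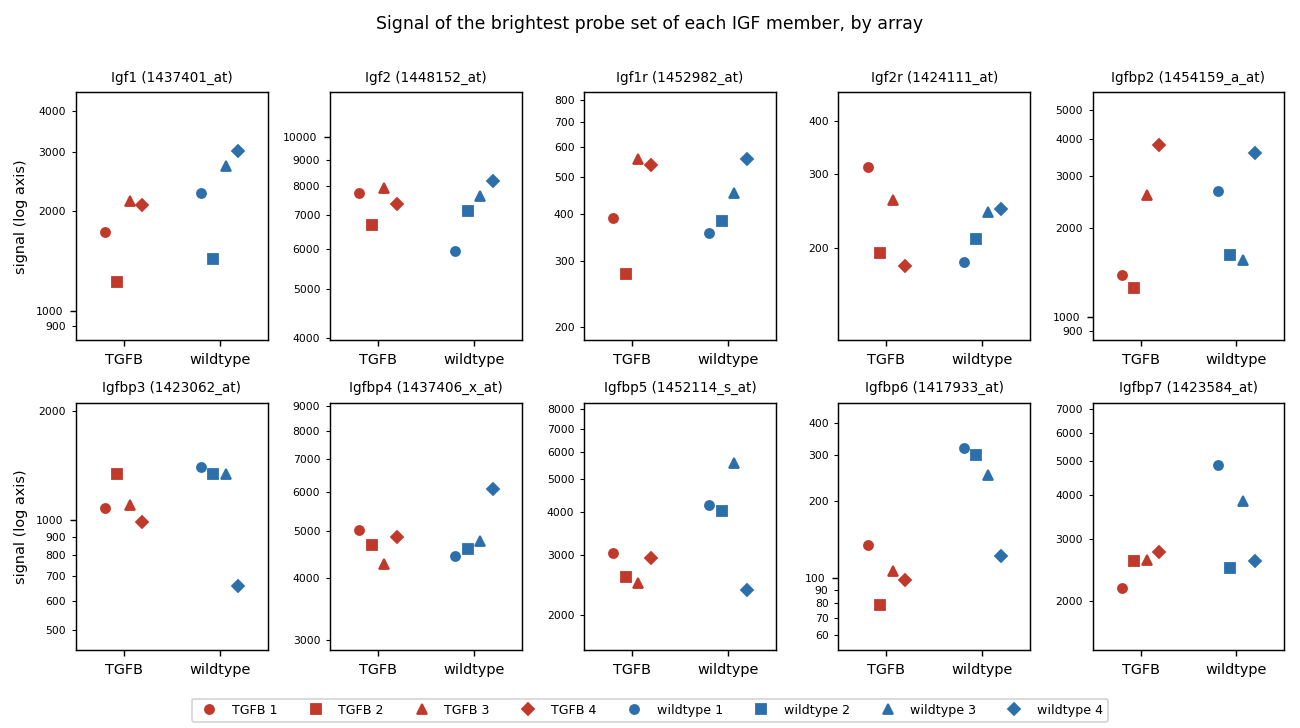
Signal (log axis) of the brightest probe set of each of the 10 IGF members in the 4 TGFB arrays (red) and the 4 wildtype arrays (blue), with the array number given by the marker shape. The groups overlap in every panel, and for Igfbp5 and Igfbp6 the overlap comes from wildtype 4, at 2358 and 122.

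**Figure D2:**
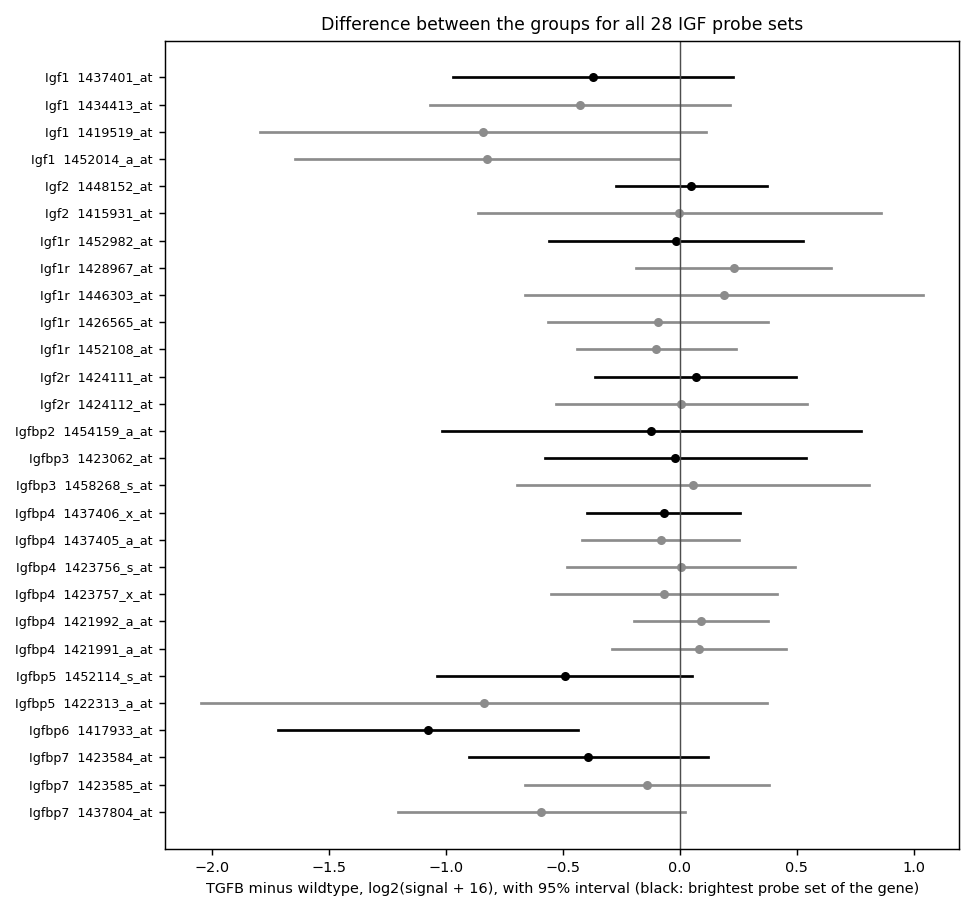
Difference TGFB minus wildtype on the log2(signal + 16) scale for all 28 IGF probe sets, with the 95% interval of the limma fit. Black marks the brightest probe set of a gene, and only Igfbp6 and 1 Igf1 probe set have an interval that leaves out 0.

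Igfbp6 and Igfbp5 carry the clearest pattern by array, and the start regions of these genes are shown with that of Igfbp4, whose level was near equal in the groups. The sequences are RefSeq's (GRCm38.p6), from 250 bases before to 50 bases after a start listed there, 5′ to 3′ on the gene's strand. For Igfbp5 and Igfbp6 that is the outer start of the annotated gene, while for Igfbp4 it lies inside the annotated gene, downstream of its outer start. Capitals mark the TATA box TATAAA, the SMAD box CAGAC bound by TGF-beta's transcription factors, and the GC box GGGCGG, each searched on both strands. No match overlapped another in these windows. Igfbp4 lies at chr11:99040994-99041293, forward strand, Igfbp5 at chr1:72874816-72875115, reverse strand and Igfbp6 at chr15:102143936-102144235, forward strand.
Igfbp4: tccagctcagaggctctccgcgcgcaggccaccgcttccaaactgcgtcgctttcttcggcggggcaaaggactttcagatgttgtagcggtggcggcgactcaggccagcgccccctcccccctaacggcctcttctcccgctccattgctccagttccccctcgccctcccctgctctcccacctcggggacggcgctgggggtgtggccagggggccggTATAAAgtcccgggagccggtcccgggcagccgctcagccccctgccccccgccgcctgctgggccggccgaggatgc
Igfbp5: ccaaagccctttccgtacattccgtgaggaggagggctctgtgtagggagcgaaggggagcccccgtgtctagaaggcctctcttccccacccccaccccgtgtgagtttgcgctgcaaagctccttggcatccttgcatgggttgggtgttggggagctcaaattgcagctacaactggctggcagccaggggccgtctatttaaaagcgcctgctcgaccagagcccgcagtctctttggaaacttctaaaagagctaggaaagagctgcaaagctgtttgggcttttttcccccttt
Igfbp6: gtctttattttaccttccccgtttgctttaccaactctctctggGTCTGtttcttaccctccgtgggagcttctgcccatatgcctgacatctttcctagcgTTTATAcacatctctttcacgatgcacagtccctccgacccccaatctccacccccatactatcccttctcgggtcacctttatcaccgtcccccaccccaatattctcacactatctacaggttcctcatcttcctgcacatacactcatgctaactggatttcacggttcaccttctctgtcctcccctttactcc
The Igfbp6 window held 1 SMAD box, read as GTCTG, that begins 206 bases before the start, and 1 TATA box letter match on the opposite strand. The Igfbp5 window held none of the 3 motifs, and the Igfbp4 window held a TATA box that begins 28 bases before the start. Among all 32851 windows of this length, 49.6% held a SMAD box, 13.6% a TATA box and 35.7% a GC box. A match is a description of letters only.

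Igfbp6 encodes a binding protein that prefers IGF2 over IGF1. Its probe set 1417933_at gave signals of 134, 78.6, 106 and 98.6 in TGFB 1 to 4 and of 319.8, 299.6, 252 and 122 in wildtype 1 to 4. Wildtype 1 to 3 lay above every TGFB array, while wildtype 4 lay within the TGFB range of 78.6 to 134. On the log2(signal + 16) scale the level was 6.89 ± 0.27 (SD, n = 4) against 7.97 ± 0.59 (SD, n = 4), a difference of -1.08 (SE 0.28, 95% interval -1.72 to -0.44, limma adjusted p = 0.822). The unadjusted p was 0.00413, and the exact two-sided permutation p was 0.0571, where 0.0286 is the smallest that 4 against 4 arrays allow.

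Igfbp5 encodes a binding protein that sticks to the extracellular matrix. Its bright probe set 1452114_s_at gave signals of 3022, 2582, 2474 and 2927 in TGFB 1 to 4 and of 4197, 4025, 5568 and 2358 in wildtype 1 to 4. The dim probe set 1422313_a_at gave signals of 37.9, 42.5, 20 and 67 in TGFB 1 to 4 and of 104, 112, 192 and 13.9 in wildtype 1 to 4. In both, wildtype 1 to 3 lay above every TGFB array and wildtype 4 lay below every TGFB array. The differences were -0.49 (SE 0.24, 95% interval -1.04 to 0.054, limma adjusted p = 0.868) and -0.83 (SE 0.54, 95% interval -2.04 to 0.37, limma adjusted p = 0.902).

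Without wildtype 4, both genes stood apart more clearly but still missed the threshold. For Igfbp6 the difference was then -1.36 (SE 0.18, limma adjusted p = 0.102). For the Igfbp5 probe sets it was -0.73 (SE 0.16, adjusted p = 0.214) and -1.41 (SE 0.30, adjusted p = 0.202). In these 7 arrays all TGFB arrays lay below all wildtype arrays for 3 of the 28 probe sets, those of Igfbp6 and Igfbp5, and above them for 0, against 5.45% and 5.19% of all probe sets. This count was added after the data were seen. Only wildtype 4 had made the groups overlap for these 3, so their separation without it follows from the signals above and is no test. At an unadjusted p under 0.05 there were 4 of 28 lower and 0 higher, against 5.78% and 5.88%. Limma then called 0 members and 0.00444% of all probe sets at adjusted p under 0.05.

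**Figure D3:**
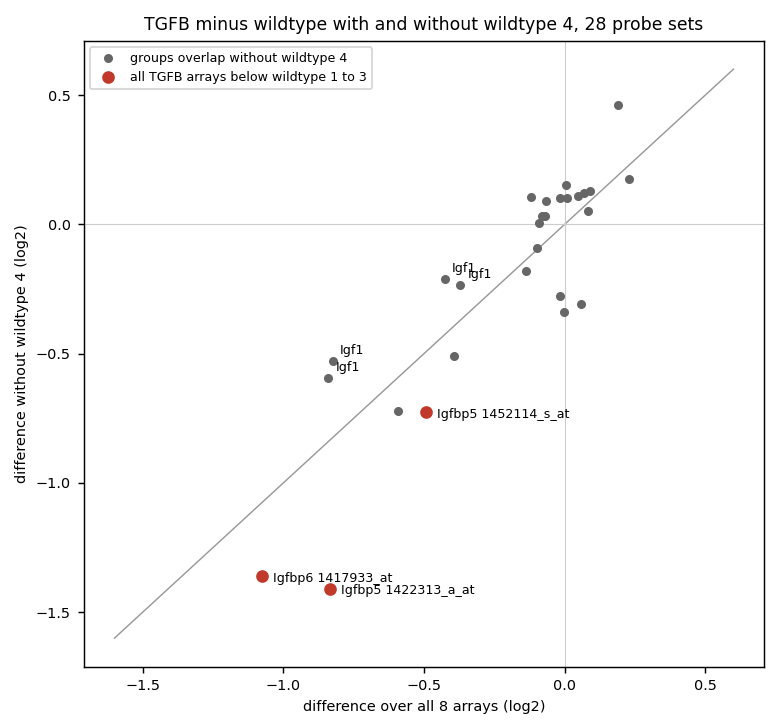
Difference TGFB minus wildtype (log2) of the 28 IGF probe sets over all 8 arrays (horizontal axis) and without wildtype 4 (vertical axis), with the line of equal values. The Igfbp6 probe set and both Igfbp5 probe sets lie below the line, and the 4 Igf1 probe sets lie above it, nearer to 0 without wildtype 4.

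Markers of other cell types moved with Igfbp6 and Igfbp5. Of 14 marker lists, 6 had a mean log2(signal + 16) in each of wildtype 1 to 3 above every TGFB array, and in 5 of these 6 wildtype 4 lay within or below the TGFB range. For fibroblasts of loose connective tissue the means were 8.29 to 9.07 in TGFB arrays, 9.50 to 9.97 in wildtype 1 to 3 and 8.45 in wildtype 4. For pigment cells they were 8.61 to 10.74 in TGFB arrays, 11.00 to 12.41 in wildtype 1 to 3 and 10.64 in wildtype 4, and for photoreceptors 4.59 to 4.81 in TGFB arrays, 5.41 to 7.09 in wildtype 1 to 3 and 4.69 in wildtype 4. In these 3 lists wildtype 4 lay within the TGFB range, as for Igfbp6. For smooth muscle the means were 7.97 to 9.05 in TGFB arrays, 9.18 to 9.81 in wildtype 1 to 3 and 7.92 in wildtype 4, and for blood endothelium 6.77 to 7.14 in TGFB arrays, 7.40 to 7.60 in wildtype 1 to 3 and 6.67 in wildtype 4. In these lists wildtype 4 lay below the TGFB range, as for Igfbp5. In the keratocyte list (11.06 to 11.79 in TGFB arrays, 11.93 to 12.14 in wildtype 1 to 3 and 12.17 in wildtype 4) wildtype 4 was the highest array.

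The order of a list was not that of each of its genes. Wildtype 1 to 3 lay above every TGFB array for 3 of 4 fibroblast, 3 of 4 photoreceptor, 2 of 4 smooth muscle, 2 of 5 pigment cell, 0 of 4 blood endothelium and 2 of 5 keratocyte genes. The share of all probe sets was 5.45%. In the lists without this order of means it was 1 of 5 corneal epithelium, 1 of 4 macrophage and 0 of the other genes. Because these 6 lists were taken for having this order, their counts are no separate support for the order. The fibroblast peptidase inhibitor gene Pi16 followed it, with signals of 60.9 to 139 in TGFB arrays, 601 to 1024 in wildtype 1 to 3 and 72.5 in wildtype 4, while the matrix gene Dpt, with TGFB signals from 1595 to 3844 and wildtype signals from 994 to 2196, did not. Of the smooth muscle genes, the myosin gene Myh11 and the actin binding gene Cnn1 followed it. The actin gene Acta2, with TGFB signals from 3788 to 6626 and wildtype signals from 5237 to 6255, did not, nor did the desmin gene Des, from 224 to 753 and from 225 to 903. No marker of these 6 lists was under a signal of 16 on every array, but the photoreceptor genes Pde6b and Rcvrn passed it only in wildtype 1, at 47.3 and 42.2. Their order in the other arrays rests on signals near the floor. Examples are 8.84 in wildtype 2 against 7.98 in TGFB 2 for Pde6b, and 6.12 in wildtype 2 against 3.11 in TGFB 4 for Rcvrn. The part of these cell types in the Igfbp6 and Igfbp5 values was not tested. With the pigment mean as a covariate the Igfbp6 difference was -0.87 (limma adjusted p = 1.00). The Igfbp5 differences were then -0.27 at 1452114_s_at and -0.22 (SE 0.74) at 1422313_a_at, against -0.49 and -0.83 without the covariate. The pigment mean was higher in each of wildtype 1 to 3 than in every TGFB array, so this covariate overlaps with the groups. Leaving out TGFB 1, TGFB 2 and wildtype 2 gave an Igfbp6 difference of -0.97 (limma adjusted p = 0.987).

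**Figure D4:**
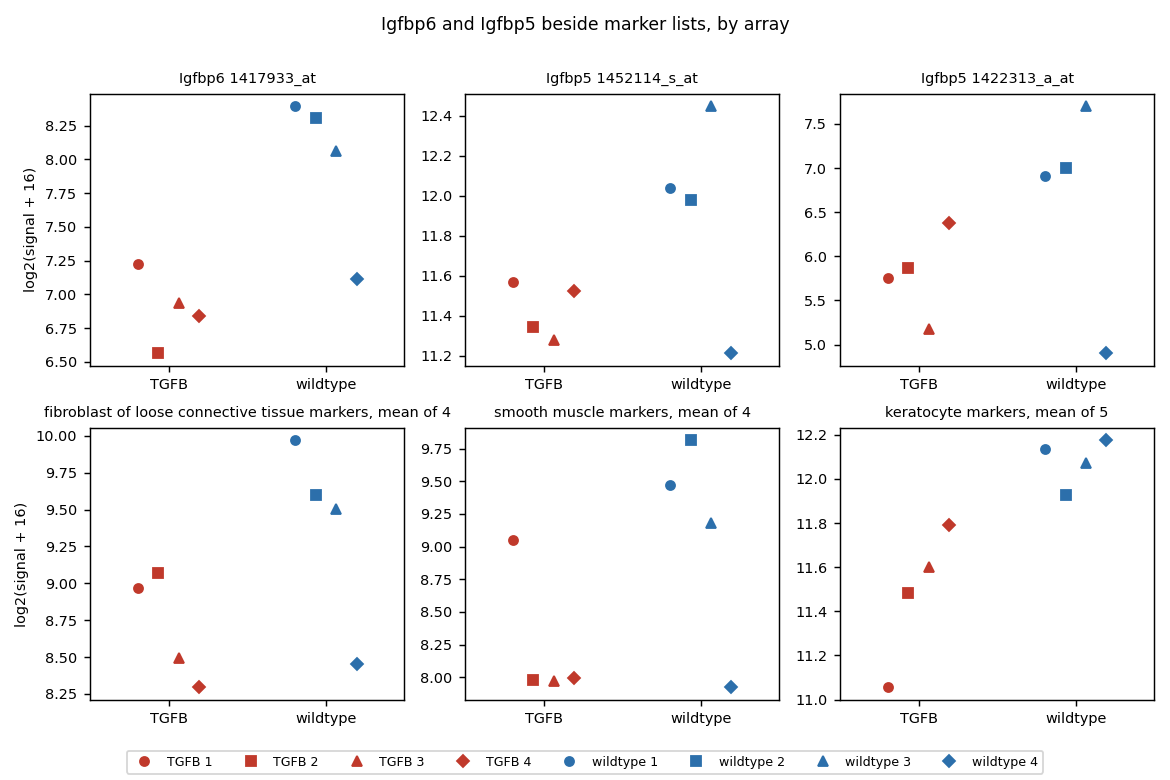
Level, as log2(signal + 16), of the Igfbp6 probe set and both Igfbp5 probe sets (top) and the mean level of loose connective tissue fibroblast, smooth muscle and keratocyte markers (bottom) in each array. Array 4 of the wildtype group sits within the TGFB range for Igfbp6 and fibroblast markers, below it for Igfbp5 and smooth muscle markers, and highest of all for keratocyte markers.

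Among the ligands, Igf1, the main postnatal IGF, had a lower mean in TGFB corneas at all 4 of its probe sets, within the spread between arrays. The brightest, 1437401_at, gave signals of 1729, 1226, 2138 and 2083 in TGFB 1 to 4 and of 2259, 1432, 2722 and 3021 in wildtype 1 to 4. The next, 1434413_at, gave signals of 1177, 779, 1315 and 1672 in TGFB 1 to 4 and of 1647, 1216, 1319.6 and 2519.6 in wildtype 1 to 4. In both, TGFB 2 was the lowest array and wildtype 4 the highest, and the groups overlapped. The differences were -0.37 (SE 0.27, 95% interval -0.97 to 0.23, limma adjusted p = 0.910) and -0.43 (SE 0.29, 95% interval -1.07 to 0.22, limma adjusted p = 0.906).

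The other Igf1 probe sets showed the same order of extremes with wider gaps. Probe set 1419519_at gave signals of 291, 183, 569 and 508 in TGFB 1 to 4 and of 509, 359, 866 and 1091 in wildtype 1 to 4. Probe set 1452014_a_at gave signals of 259, 183, 317 and 459 in TGFB 1 to 4 and of 504, 301, 501 and 985 in wildtype 1 to 4. Again TGFB 2 was lowest and wildtype 4 highest. The differences were -0.84 (SE 0.42, 95% interval -1.79 to 0.11, limma adjusted p = 0.872) and -0.82 (SE 0.36, 95% interval -1.64 to -0.0043, limma adjusted p = 0.846). The last had an unadjusted p of 0.0490.

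Igf1 was lowest where cornified transcripts were high. At each of the 4 probe sets the 3 lowest signals came from TGFB 1, TGFB 2 and wildtype 2, the arrays with high cornified epidermis markers. Without these 3 arrays the 4 differences were -0.33, -0.25, -0.53 and -0.70. With the cornified mean as a covariate they were -0.17, -0.24, -0.50 and -0.56. Without wildtype 4 they were -0.23, -0.21, -0.59 and -0.53. All stayed below 0, and none passed. Macrophages are a known source of IGF1. The mean of 4 of 4 macrophage markers was 7.95 to 8.74 over the TGFB and 8.39 to 9.21 over the wildtype arrays. It was highest in wildtype 4, and 3 of the 4 markers were lower on average in TGFB. Within the groups the order differed from that of Igf1. TGFB 1 and TGFB 2, the lowest TGFB arrays at all 4 Igf1 probe sets, had the highest TGFB macrophage means, 8.74 and 8.62. Wildtype 3 had the lowest wildtype macrophage mean, 8.39, while wildtype 2 was the lowest wildtype array at all 4 Igf1 probe sets. The part of macrophages in the Igf1 values was not tested.

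**Figure D5:**
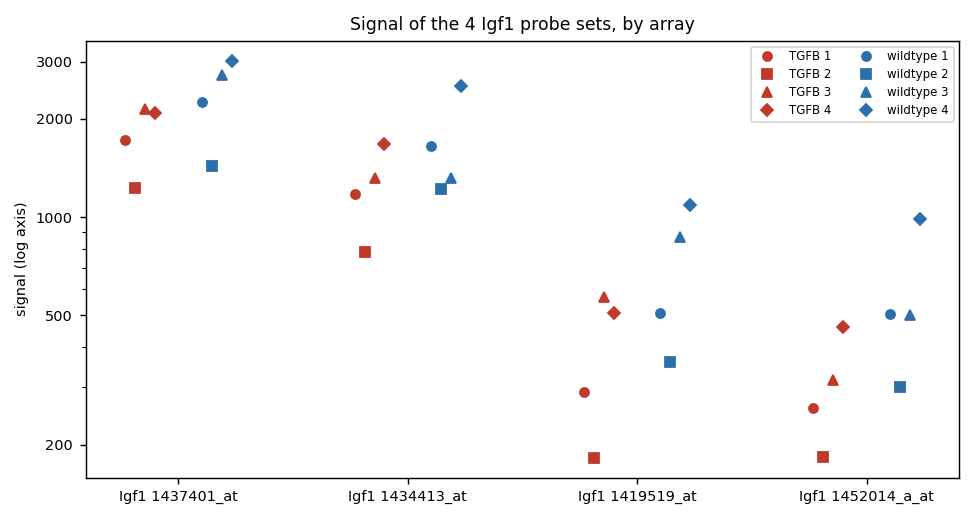
Signal (log axis) of the 4 Igf1 probe sets in each TGFB array (red) and wildtype array (blue), with the array number given by the marker shape. At every probe set TGFB 2 is the lowest and wildtype 4 the highest, and the groups overlap.

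Igf2, the ligand of fetal growth and an imprinted gene, was strongly detected and near equal in the groups. Its probe set 1448152_at gave signals of 7747, 6689, 7911 and 7368 in TGFB 1 to 4 and of 5933, 7134, 7642 and 8148 in wildtype 1 to 4. Wildtype 1 was the lowest and wildtype 4 the highest, so the TGFB arrays lay within the wildtype range. The level was 12.86 ± 0.11 (SD, n = 4) against 12.81 ± 0.20 (SD, n = 4), a difference of 0.049 (SE 0.14, 95% interval -0.27 to 0.37, limma adjusted p = 0.979). The dim second probe set, 1415931_at, gave signals of 78.2, 80.9, 93.2 and 48 in TGFB 1 to 4 and of 55.8, 151, 105 and 28.3 in wildtype 1 to 4, a difference of -0.00088 (SE 0.38) that became -0.34 (SE 0.30) without wildtype 4. The patterns of the Igf2 probe sets differed across the 8 arrays (Pearson r = -0.0776), whereas the other 3 Igf1 probe sets correlated with the brightest at r of 0.833 to 0.957.

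The receptors showed no difference past the spread. Igf1r, the signalling receptor, gave signals of 391, 277, 558 and 538 in TGFB 1 to 4 and of 356, 382, 454 and 557 in wildtype 1 to 4 at its brightest probe set 1452982_at. TGFB 2 was the lowest and TGFB 3 the highest of the 8 arrays. The difference was -0.017 (SE 0.24, 95% interval -0.56 to 0.53, limma adjusted p = 0.995). Its other 4 probe sets went both ways, at 0.23 (SE 0.18) for 1428967_at, 0.19 (SE 0.38) for 1446303_at, -0.092 (SE 0.21) for 1426565_at and -0.10 (SE 0.15) for 1452108_at, and they correlated with the brightest at r of 0.521 to 0.922 over 8 arrays.

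Igf2r, the clearance receptor and also an imprinted gene, gave signals of 311, 195, 259 and 182 in TGFB 1 to 4 and of 186, 209.6, 243 and 247 in wildtype 1 to 4 at 1424111_at. TGFB 1 was the highest and TGFB 4 the lowest array. The difference was 0.068 (SE 0.19, 95% interval -0.36 to 0.50, limma adjusted p = 0.979). Its second probe set, 1424112_at, had TGFB signals from 130.1 to 197 and wildtype signals from 94.7 to 214, with a difference of 0.0076 (SE 0.24).

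Of the other binding proteins, Igfbp2, a carrier of IGFs in fetal life, varied widely within both groups. Its only probe set, 1454159_a_at, gave signals of 1391, 1258, 2576 and 3810.4 in TGFB 1 to 4 and of 2662, 1627, 1562 and 3563 in wildtype 1 to 4. High and low arrays stood in both groups, with TGFB 4 and wildtype 4 the highest pair. The difference was -0.12 (SE 0.40, 95% interval -1.01 to 0.77, limma adjusted p = 0.981). Igfbp2 and Igfbp5 are neighbours in the RefSeq annotation, and their array patterns differed: wildtype 4 was the second highest for Igfbp2 and the lowest for Igfbp5.

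Igfbp3, the main carrier of IGFs in serum, was marked by 1 low wildtype array. Its bright probe set 1423062_at gave signals of 1078, 1345, 1100.3 and 991 in TGFB 1 to 4 and of 1406, 1339.8, 1341 and 657 in wildtype 1 to 4. Wildtype 1 to 3 lay close together and wildtype 4 lay below all other arrays. The difference was -0.018 (SE 0.25, 95% interval -0.58 to 0.54, limma adjusted p = 0.995), and without wildtype 4 it was -0.28 (SE 0.14, adjusted p = 0.512). The second probe set, 1458268_s_at, gave signals of 258, 299.8, 221 and 216 in TGFB 1 to 4 and of 372, 276, 288 and 102 in wildtype 1 to 4. It again had wildtype 4 lowest, and its difference of 0.056 (SE 0.33) became -0.31 (SE 0.17) without that array, a change of sign.

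Igfbp4, an inhibitor of IGF action that is cut by the protease PAPPA, was strongly detected and near equal in the groups. Its brightest probe set, 1437406_x_at, gave signals of 5032, 4674, 4279.8 and 4851 in TGFB 1 to 4 and of 4436, 4586, 4772 and 6095 in wildtype 1 to 4. The highest was wildtype 4, and the other 7 arrays lay between 4279.8 and 5032. The difference was -0.069 (SE 0.14, 95% interval -0.40 to 0.26, limma adjusted p = 0.967). The other 5 probe sets had differences from -0.081 to 0.090. One of them, 1421991_a_at, was near the floor, with TGFB signals from 3.87 to 15.4 and wildtype signals from 4.55 to 7.14.

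Igfbp7, a secreted protein of vessels and stroma that binds IGFs weakly, gave signals of 2165, 2596, 2611 and 2757 in TGFB 1 to 4 and of 4878, 2474, 3839 and 2601 in wildtype 1 to 4 at 1423584_at. Wildtype 1 and wildtype 3 lay above all TGFB arrays, while wildtype 2 and wildtype 4 lay within their range. The difference was -0.39 (SE 0.23, 95% interval -0.90 to 0.12, limma adjusted p = 0.892). Probe set 1423585_at had a difference of -0.14 (SE 0.23) and the near-floor 1437804_at one of -0.59 (SE 0.27), where wildtype 1 and wildtype 3 again were highest at 17 and 29.1 against 1.55 to 2.6 in TGFB arrays. Wildtype 1 and wildtype 3 were also the arrays with the highest pigment cell means (12.41 and 11.93). With that mean as a covariate the difference of 1423584_at was 0.086 (adjusted p = 1.00), a change of sign. The differences of 1423585_at and 1437804_at were then 0.24 (SE 0.29) and -0.18 (SE 0.35). The pigment mean was itself higher in each of wildtype 1 to 3 than in every TGFB array, so this covariate overlaps with the groups. The part of pigment cells in the Igfbp7 values was not tested.

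Of 59 listed partners of the pathway, 53 were measured, and limma called 0 at adjusted p under 0.05 over all probe sets. An unadjusted p under 0.05 was found for 4, of which Stc1, Adam12 and Stat5a were higher and Ins2 lower in TGFB, against 7.23% of all genes at their brightest probe set, and the groups overlapped for all 53, where 3.94% of genes had groups apart. The mean was higher in TGFB for 32 (60.4%) and lower for 21 (39.6%), against 47.4% and 52.6% of all genes at their brightest probe set. The median difference was 0.10, against -0.014 over all genes. The protease gene Adam12 gave 0.44 (SE 0.18) and the transcription factor gene Stat5a 0.52 (SE 0.19). The proteases and inhibitors that set binding protein levels gave Pappa 0.32 (SE 0.17), Pappa2 0.21 (SE 0.32), the PAPPA inhibitors Stc1 0.66 (SE 0.23) and Stc2 0.19 (SE 0.21), and the secreted protease Htra1 0.12 (SE 0.41). Stc1 had signals of 128, 122, 124 and 80.8 in TGFB 1 to 4 and 58.2, 57.6, 48.1 and 107 in wildtype 1 to 4 (limma adjusted p = 0.837), so that wildtype 4 again lay within the TGFB range. Without wildtype 4 the Stc1 difference was 0.86 (SE 0.18, limma adjusted p = 0.197). Htra1 was bright in every array, with TGFB signals from 3890.2 to 7637 and wildtype signals from 3086 to 11588, of which wildtype 4 was the highest. Without it the Htra1 difference was 0.51 (SE 0.28, limma adjusted p = 0.537). Among the named receptors, adaptors and feedback genes the insulin receptor Insr gave -0.20 (SE 0.15), Irs1 0.30 (SE 0.24), Irs2 -0.092 (SE 0.19), the inhibitory adaptor Grb10 0.10 (SE 0.17) and the suppressor of growth hormone signalling Socs2 0.34 (SE 0.42). Without wildtype 4 the Socs2 difference was 0.71 (SE 0.34, limma adjusted p = 0.472). The mRNA binding protein gene Igf2bp3 gave 0.49 (SE 0.27). The liver proteins of serum IGF complexes, Igfbp1 and Igfals, were near the floor, at signals of 0.537 to 4.93 and of 2.39 to 16.4, with differences of 0.085 (SE 0.13) and -0.070 (SE 0.20). Ins2, the insulin gene beside Igf2, gave TGFB signals from 19.7 to 37.3 and wildtype signals from 34.3 to 113, a difference of -0.77 (SE 0.28) with an adjusted p of 0.837. H19 and Igf2bp2 were not analysed here.

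For the 8 members with a mean level of 8 or more, the 3 genes with the most similar pattern were taken from 5353 genes by Pearson correlation over the 8 arrays. This is a description only. The top values among so many genes over 8 arrays are high by selection, and the reason for a shared pattern was not tested. For Igf1 they were Mxra7 (r = 0.964), Kidins220 (r = 0.939) and Rilpl2 (r = 0.924), and for Igf2 Bex1 (r = 0.966), Mbtd1 (r = 0.961) and Zdhhc21 (r = 0.948). For Igf1r they were Rtca (r = 0.971), Cnih4 (r = 0.969) and Lcorl (r = 0.968). For Igfbp2 they were Chrac1 (r = 0.983), Garre1 (r = 0.976) and Tmem60 (r = 0.974), and for Igfbp3 Atp11a (r = 0.991), Gipc1 (r = 0.988) and Rnd3 (r = 0.972). Igfbp4 was most like the stromal collagen gene Col3a1 (r = 0.984), Anapc5 (r = 0.965) and Tnrc6c (r = 0.933). For Igfbp5 they were Uaca (r = 0.950), 1600014C10Rik (r = 0.942) and Epb41l4a (r = 0.937), and for Igfbp7 the complement gene C2 (r = 0.972), Scamp3 (r = 0.936) and Mitf (r = 0.935), of which Mitf is the transcription factor of pigment cells.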

How the data were processed

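The deposited table of the authors holds linear probe set intensity values for 8 arrays. Which software and scaling made them is not given in the sources used here. Each array has a 2% trimmed mean of 150, and no normalization was added. Tests used log2(signal + 16), a scale that shrinks differences between low signals. Control probe sets (64) were dropped. The platform annotation of 2016 names 1 gene for 34945 probe sets, more than 1 for 932 and none here for 9160; 34741 were matched by Entrez ID to current symbols (RefSeq, GRCm38.p6).

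All 45037 probe sets were fitted with limma 3.58.1 in R 4.3.3 (lmFit, eBayes, 9.22 total degrees of freedom), TGFB minus wildtype, with Benjamini-Hochberg adjustment over all of them and a threshold of 0.05. Intervals are 95% intervals of that fit. The exact two-sided permutation test covers the 70 assignments of arrays. Partner and marker genes were read at their brightest probe set. The fit was also run on simulated data with known differences, but the outcome is not given here and lends the results no support. The number of arrays limits the precision, and replicate numbers follow record order and pair no arrays. Figures were drawn with matplotlib 3.10.9.

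The members, the gene lists and the tests were chosen with earlier results of these data known. All 10 members and 16 partner names are reported whatever their values, apart from those not analysed here. Pi16, Dpt, the smooth muscle genes, Acta1, Dct, Cryga and the other markers named singly were picked from the marker lists after their values were seen. Adam12 and Stat5a were picked from the partners in the same way. Alternatives were 2 other offsets, quantile normalization, centring arrays on their median, dropping probe sets with means below the 40th percentile, 1 probe set or the mean per gene, a variance trend, robust eBayes, array weights, arrays left out and 2 marker means as covariates.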

Additional observations from a re-analysis of the deposited data

Results flagged for a closer look

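Igfbp3 in wildtype 4 had a signal of 657 at probe set 1423062_at, against 1339.8 to 1406 in the other wildtype arrays, a gap of 0.936 of the group's whole log2 range where 0.829 is Dixon's limit for 4 samples. This was 1 of 56 groups of 4 values examined, and chance alone marks about 1 in 20. The same array had the highest Gapdh 3'/5' ratio (6.41) and a low Krt12 signal (562); their part in the Igfbp3 value was not tested.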

How the results depend on the processing

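No member and none of the 53 partners passed the adjusted threshold under 22 other settings, of which leaving out wildtype 1 and wildtype 4 together was added after seeing the data; over the 28 member probe sets and the named partners other than Adam12 and Stat5a, which were not tabulated singly, the smallest adjusted p was 0.102, for Igfbp6 without wildtype 4. The count at an unadjusted p under 0.05 ran from 0 to 6 for members (2 with all arrays) and from 0 to 9 for partners (4 with all arrays); with single arrays left out the extremes were 1, as without TGFB 1, and 6, without wildtype 2, for members, and 1, as without TGFB 2, and 8, without wildtype 4, for partners. The count over all 45037 probe sets also moved with the setting. It was 2641 with all arrays, 2424 with an offset of 1 in place of 16, and 4441 with array weights. Without wildtype 4 it was 2603 lower (5.78%) and 2646 higher (5.88%) in TGFB. The ranges are therefore no result about members or partners. Igfbp6 differences ran from -1.36 to -0.87, those of Igfbp5 stayed below 0 at both probe sets and those of Igf1 at all 4. The sign turned in 12 of the 24 results given by a brightest probe set or partner gene, Igfbp7 (-0.39 with all arrays) and Pappa2 (0.21) among them, and in 12 of the 18 other member probe sets, so no direction is settled for them; the cause was not tested. The 53 turned values of the 18 other probe sets are not listed, a division made after the number of turned signs was seen, as was the choice to give the unadjusted counts as ranges. With probe sets averaged per gene the sign turned for Igf1r (0.042) and Igfbp3 (0.019). With array weights the sign turned for Igf1r (0.11), Igfbp2 (0.16) and Irs2 (0.014). Without TGFB 1, TGFB 2 and wildtype 2 the sign turned for Igf1r (0.28), Igf2r (-0.040), Igfbp2 (0.35), Irs2 (0.068) and Pappa2 (-0.018). With the cornified covariate the sign turned for Igf1r (0.14), Igfbp2 (0.19) and Irs2 (0.016). With the pigment covariate the sign turned for Igf2 (-0.058), Igf1r (0.11), Igf2r (-0.20), Igfbp2 (0.35), Igfbp3 (0.23), Igfbp7 (0.086), Igfals (0.15), Grb10 (-0.16) and Pappa2 (-0.52). Without wildtype 1 and wildtype 4 the sign turned for Igf1r (0.031), Igfbp2 (0.35) and Igfbp4 (0.0069). Over single arrays left out, brightest probe set differences whose sign turned ran from -0.14 to 0.18 for Igf1r, from -0.066 to 0.18 for Igf2r, from -0.42 to 0.11 for Igfbp2, from -0.28 to 0.083 for Igfbp3, from -0.17 to 0.10 for Igfals, from -0.12 to 0.51 for Htra1, from -0.041 to 0.11 for Igf2, from -0.060 to 0.38 for Pappa2, from -0.12 to 0.032 for Igfbp4 and from -0.17 to 0.043 for Irs2. No paired analysis was possible because the labels give the groups no shared replicate numbers. Of the scalings, median centring moved the median of all probe sets to -0.020 and quantile normalization to 0.00028. Intensities give no read depth, and dim probe sets such as Igfbp4 1421991_a_at and Igfbp7 1437804_at lie where log2(signal + 16) shrinks differences.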
